A study of Mus musculus with 43 samples.

Results

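Back skin of iNZM mice was compared with back skin of WT mice in the absence of ultraviolet B (UVB) light. The comparison took the 4 iNZM and the 4 WT libraries of unexposed skin out of 43 libraries in all, and every gene with a normalised value of at least 10 in at least 4 of the 43 libraries, which left 19170 of 23256 genes. The animals were female, between 10 and 13 weeks of age, and the 8 libraries came from mice that received no UVB. The labels define neither iNZM nor the strain behind WT; the groups are compared here as differing in genetic background and in the interferon receptor, and the part of each cannot be told apart. The study's other groups were NZM mice (the title names the lupus-prone strain NZM2328) without UVB, and all 3 genotypes 24 hours after 1 dose of 300 mJ/cm2 (acute) or after 5 daily doses of 100 mJ/cm2 (chronic). Values of the 5 unexposed NZM libraries and of the 5 iNZM and 5 WT libraries per UVB regimen are set beside the comparison where they bear on a gene. Nothing in the labels says that libraries of 1 group came from separate litters or days, so p-values measure the spread between libraries within a group. For the tests and SE of single genes this spread was pooled over all 43 libraries, UVB-exposed ones included.

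Type I interferons signal through a receptor of 2 chains, encoded by Ifnar1 and Ifnar2. Receptor-bound kinases activate transcription factors, STAT2 with its partner IRF9 among them, which bind the interferon-stimulated response element in the promoters of interferon-stimulated genes, a set that encodes antiviral effectors and regulators of the response itself. In lupus this set is often raised in skin and blood, and resting skin holds a low tonic level of it.

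Read depth overlapped between the groups, from 24856961 to 31276683 reads in iNZM and from 24442363 to 29514616 in WT (exact permutation test of the means, two-sided p = 0.914). The first principal component of the 8 libraries held 45.9% of the variance and separated iNZM from WT. The second held 17.1% and split WT into libraries 41 and 43 against libraries 44 and 45. In libraries 44 and 45 the summed level of 18 macrophage markers was 57570 and 81780 normalised counts, against 11250 and 11520 in libraries 41 and 43 and between 12500 and 31590 in iNZM. Fibroblast, monocyte and melanocyte genes were also high in those WT libraries, and library 44 alone held hair genes at 24500 summed counts, against 1646 to 2409 in the other 7. Mitochondrial transcripts took 8.46% and 7.80% of the reads in WT libraries 41 and 43 and 3.75% and 3.67% in libraries 44 and 45. Within iNZM, libraries 39 and 40 stood apart in antibody genes. Results that rest on these libraries are given with and without them. As a check of the tissue, the keratinocyte gene Krt5 was between 119700 and 149600 normalised counts in iNZM and between 62900 and 122500 in WT.

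In unexposed skin, 1119 genes were higher and 756 were lower in iNZM than in WT at an adjusted p below 0.05 in limma; such genes are referred to as called. These are 5.84% and 3.94% of the genes tested, 9.78% together, and 4236 genes (22.1%) had an unadjusted p below 0.05. Among the 1875 called genes, 1732 (92.4%) had 4 iNZM libraries that did not overlap the 4 WT libraries, whereas over all tested genes 2136 (11.1%) lay wholly above WT and 1957 (10.2%) wholly below. The median log2 difference was 1.82 for the genes called higher, -1.22 for those called lower and -0.02 over all tested genes. A log2 difference of 1 or more was reached by 792 of the genes called higher and of -1 or less by 441 of those called lower. Without WT libraries 44 and 45 the counts were 701 higher and 391 lower, and without iNZM libraries 39 and 40 they were 626 and 423. Of the 1875 called genes, 970 were also called without WT libraries 44 and 45, none of them in the opposite direction.

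**Figure D1:**
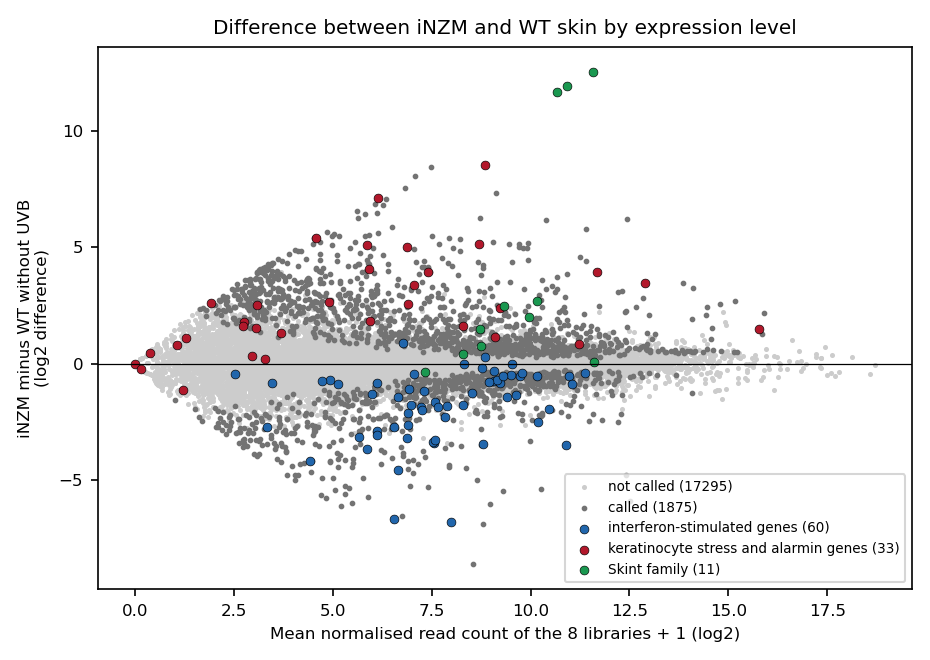
Log2 difference between iNZM and WT skin without UVB (vertical axis) against the mean normalised read count of the 8 libraries plus 1 (log2, horizontal axis), 1 point per gene. Called genes are dark grey; the 60 interferon-stimulated genes lie mostly below 0, the 33 keratinocyte stress and alarmin genes mostly above, and 3 Skint genes stand above all others.

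Ifnar1, the receptor chain that starts type I interferon signalling, lies on chromosome 16 (GRCm38 chr16:91485238-91507441). Its normalised counts were 326, 374, 368 and 394 in iNZM and 866, 827, 1060 and 1318 in WT. The 4 iNZM libraries lay below all WT libraries and below the 5 NZM libraries, which held 716 to 851. The difference from WT was -1.45 ± 0.15 on the log2 scale (SE, n = 4 and 4, adjusted p = 2.01e-09), -1.21 without WT libraries 44 and 45. Reads of Ifnar1 were thus lower but present in iNZM. Ifnar2, the other chain, was 326 to 384 in iNZM and 259 to 857 in WT, with overlapping libraries (-0.21 ± 0.32, adjusted p = 0.772). The interferon-gamma receptor genes Ifngr1 and Ifngr2, the latter a neighbour of Ifnar1, were not called either (-0.29 and 0.15), nor was any of the 5 interferon receptor chains other than Ifnar1 and Ifnar2 (0 at an unadjusted p below 0.05, and 0 by edgeR and DESeq2).

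Of 14 genes of the type I receptor and its signalling, 4 were called lower and 1 higher, where 3.94% of all tested genes were lower and 5.84% higher. Besides Ifnar1 the lower genes were Stat2, the transcription factor that is specific to this pathway (-1.44), Irf7, which amplifies interferon production (-2.51), and Usp18, a feedback inhibitor of the receptor (-3.20). Usp18 was 29.4, 23.3, 19.8 and 14.6 in iNZM and 143, 199, 188 and 316 in WT. Socs1, an inhibitor of cytokine receptor kinases, was higher (1.16), at 265 to 375 in iNZM and 90.5 to 209 in WT. Irf9, the DNA-binding partner of STAT2, gave -0.52 (adjusted p = 0.166). Without WT libraries 44 and 45, Stat2 and Irf7 were not called, and without WT libraries 41 and 43 Socs1 was not. Irf7 was also not called without iNZM libraries 39 and 40.

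Around Ifnar1, 5 of the 35 tested genes within 2 Mb were called, all lower, including Ifnar1 itself. The other four were Itsn1 (-1.08), Slc5a3 (-1.22), Mrps6 (-0.66) and Synj1 (-0.60). Within 10 Mb 7 of 106 tested genes (6.6%) were called, against 9.29% of all tested genes with a position. In NZM, which shares the name of the background, Itsn1, Slc5a3 and Mrps6 differed from WT by -0.80, -1.55 and -0.73 on the log2 scale, so iNZM was not alone in these values. Itsn1, Slc5a3, Mrps6 and Synj1 were not called without WT libraries 44 and 45.

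Interferon-stimulated genes were lower in iNZM: 24 of the 60 tested were called lower and none higher, with a median log2 difference of -1.38 over the 60. By comparison, 3.94% of all tested genes were called lower. Promoter windows of 5 genes are shown, since their spacing of GAAA repeats is the core of the interferon-stimulated response element. Each line gives the reference sequence before the annotated start of the gene in the gene's orientation (RefSeq, GRCm38.p6), with matches to GAAA, any 2 bases and GAAA again, searched on both strands, in capitals; these are letters of the reference mouse genome, not of the strains studied.
Ifit1 (chr19:34640765-34640833, plus strand): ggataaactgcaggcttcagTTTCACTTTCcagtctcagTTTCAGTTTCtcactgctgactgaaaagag
Oas1a (chr5:120907526-120907565, minus strand, overlapping matches): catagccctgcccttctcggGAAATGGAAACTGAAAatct
Rsad2 (chr12:26456543-26456592, minus strand): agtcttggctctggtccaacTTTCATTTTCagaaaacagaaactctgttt
Stat2 (chr10:128270256-128270305, plus strand): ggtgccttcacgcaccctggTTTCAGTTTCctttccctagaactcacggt
Slfn8 (chr11:83020829-83020878, minus strand): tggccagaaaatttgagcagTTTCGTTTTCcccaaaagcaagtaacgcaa

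Within 250 bases before the start, 20 of the 46 interferon-stimulated genes with a promoter entry held a match (43.5%), against 384 of 11692 tested genes with an entry (3.28%). The share was 8 of 19 (42.1%) among the members called lower and 12 of 27 (44.4%) among those not called. A match describes the letters in this window and does not show that the site is bound.

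Ifit1, which binds foreign RNA caps, was 28.3, 16.5, 39.6 and 20.9 in iNZM and 110, 173, 450 and 673 in WT. Oas1a, a sensor of double-stranded RNA, was 32.7, 35.0, 19.8 and 11.5 in iNZM and 72.0, 153, 385 and 760 in WT. For both genes the lowest WT library lay above the highest iNZM library, and WT libraries 44 and 45 were the highest. The log2 differences were -3.41 ± 0.68 for Ifit1 (adjusted p = 0.000516) and -3.34 ± 0.71 for Oas1a (adjusted p = 0.00115).

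Ifi44 and its neighbour Ifi44l gave the largest differences of the list. Ifi44 was 3.27, 1.95, 4.95 and 0 in iNZM and 84.7, 201, 591 and 1148 in WT (-6.81 ± 0.79, adjusted p = 3.27e-08). Ifi44l had no read in any of the 14 iNZM libraries of the study, and it was 26.7, 36.6, 216 and 460 in unexposed WT skin, at least 254-fold higher there against a floor of 3 reads over the 4 iNZM libraries. In the 15 NZM libraries Ifi44l had reads in 1 library only, whereas Ifi44 was 24.5, 48.2, 19.7, 166 and 454 in unexposed NZM skin; the low level of Ifi44l was thus shared by NZM.

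Among the other called members were Oasl1 (-4.55) and Oasl2 (-3.44), relatives of Oas1a, Rtp4 (-3.28), Ifi27l2a (-3.48), Rsad2, which makes an antiviral nucleotide (-2.10), and Eif2ak2, the double-stranded RNA kinase (-0.70). Isg15, a ubiquitin-like protein, was 75.1 to 118 in iNZM and 151 to 670 in WT without overlap, but did not pass the test (-1.79, adjusted p = 0.0738). Mx1, an antiviral GTPase, overlapped between the groups (-0.70, adjusted p = 0.701).

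The count of called members differed with the libraries used. Without libraries 44 and 45 of WT, 6 were called lower and the median was -0.59; without libraries 41 and 43, 32 were called and the median was -2.33; without iNZM libraries 39 and 40, 14 were called. Ifi44, Ifi44l, Usp18, Rtp4 and Ifi27l2a were called in each of these 3 fits. Ifit1 and Oas1a were not called without WT libraries 44 and 45 (log2 differences of -2.42 for Ifit1 and -2.16 for Oas1a). Oasl1 (-3.03), Oasl2 (-2.22), Rsad2 (-1.61) and Eif2ak2 (-0.36) were not called in that fit either. Oas1a, Rsad2 and Eif2ak2 were also not called without iNZM libraries 39 and 40. The summed level of the 60 genes was 15190 to 16740 in iNZM, 20990 and 23970 in WT libraries 41 and 43, and 40090 and 63820 in WT libraries 44 and 45. With the macrophage marker sum as a covariate, 28 members were called lower. In bulk skin, fewer cells of a type and less RNA per cell cannot be told apart.

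**Figure D2:**
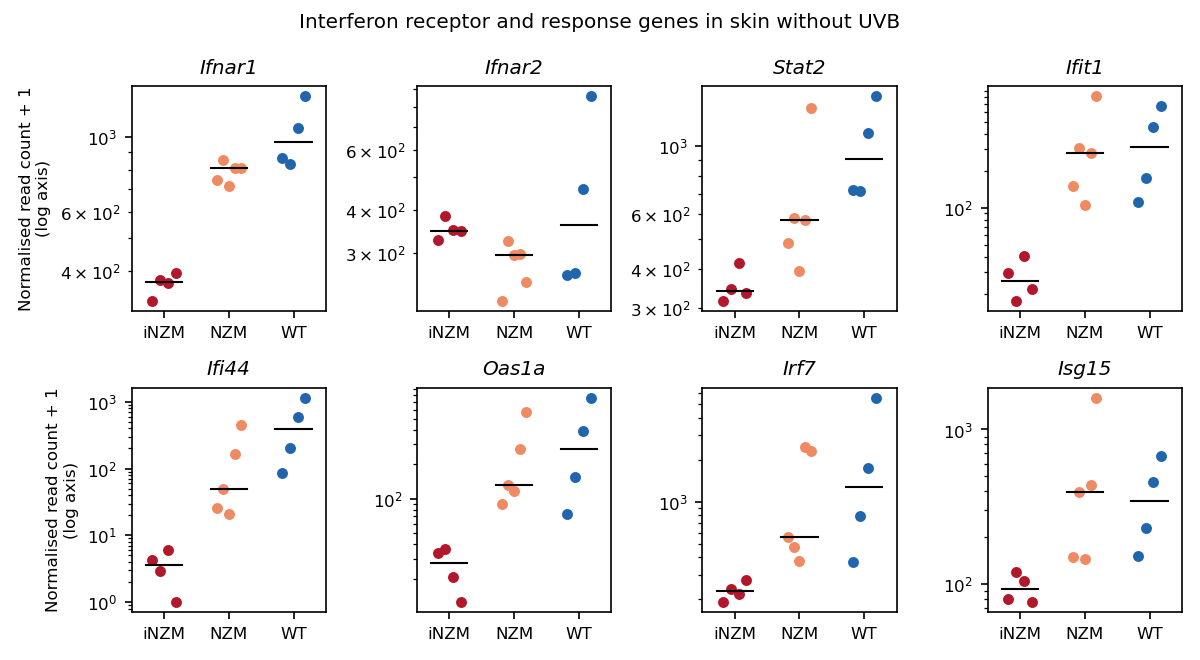
Normalised read count plus 1 (log axis) of 8 genes in each unexposed library of iNZM (4), NZM (5) and WT (4); the bar is the median. In iNZM, Ifnar1, Ifit1, Ifi44, Oas1a, Irf7 and Isg15 lie below every NZM and WT library, whereas Ifnar2 overlaps WT, and Stat2 lies below WT and overlaps NZM.

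After UVB the interferon-stimulated genes were lower in iNZM in separate libraries. After acute UVB 57 of 60 were called lower and 1 higher, with a median of -2.78, in a comparison with 12.5% of all tested genes called lower and 24.7% called in all. After chronic UVB 53 of 60 were called lower and none higher, with a median of -2.39, where 8.43% of all tested genes were lower, 6.12% higher and 14.5% called in all. Ifit1 was 14.4 ± 3.85 in iNZM and 436 ± 34.3 in WT after acute UVB (SD, n = 5 each), and 11.2 ± 8.88 and 397 ± 245 after chronic UVB. The change of the difference with UVB was called by limma for 0 members with acute and 4 members with chronic UVB, against 0.37% and 4.61% of all tested genes. At an unadjusted p below 0.05, 15 members passed with acute UVB, against 12.8% of all tested genes. By edgeR 0 and 3 members were called.

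Set beside NZM without UVB, which shares its WT libraries with this comparison, the 60 genes had a median log2 difference of -0.44 for NZM against WT, with 5 called lower, where 7.49% of all tested genes were lower and 7.47% higher. For iNZM against NZM the median was -0.92. That second contrast called 6 genes in all (0.0313%), each of them lower in iNZM: Ifnar1, Ifit1, Ifi44, Usp18, Oasl2 and Ifi213. At an unadjusted p below 0.05 it held 1082 genes (5.64%).

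Other interferon-linked families held fewer called members, where 3.94% of all tested genes were called lower. Of 12 Ifi200 genes, which encode DNA-binding proteins of 1 cluster on chromosome 1, Ifi203 (-2.26) and Ifi214 (-3.45) were called lower; both lost the call without WT libraries 44 and 45. Ifi202b, a member long tied to mouse lupus, was 155 to 251 in iNZM and 246 to 1483 in WT (-1.61, adjusted p = 0.0699). Of 18 interferon-gamma-inducible GTPases 3 were lower, namely Gbp2b (-5.00), Tgtp2 (-3.68) and Gbp7 (-2.07), of which Gbp2b alone was called without WT libraries 44 and 45. Gbp2b was 9.81 to 37.9 in iNZM and 499 to 1259 in WT, and it differed from WT by -5.31 in NZM. After UVB 16 (acute) and 17 (chronic) of the 18 GTPases were called lower in iNZM, where 12.5% (acute) and 8.43% (chronic) of all tested genes were lower.

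The called antigen presentation genes did not share 1 direction. Of the 27 class I genes 20 had a positive difference (median 0.18). Of these 27, 10 lay wholly above WT and 6 wholly below, against 11.1% and 10.2% of all tested genes. The fit of the compared groups alone called 8 class I genes higher and 5 lower. Of 27 class I genes, H2-Q1 (-2.40), H2-Q6 (-2.43) and H2-T24 (-2.08) were lower and Tap2, a peptide transporter subunit, was higher (1.28). H2-Q1 was 64.2 to 115 in iNZM and 364 to 494 in WT. The class I genes are near copies of one another and differ between strains, so their counts are uncertain. Without WT libraries 44 and 45, Tap2 and H2-T24 were not called. Of 11 class II genes tested, H2-Ob, a chaperone subunit of B cells, was higher at 109 to 130 against 6.92 to 25.4 (3.22 ± 0.69, adjusted p = 0.00132), and was not called without WT libraries 41 and 43. H2-Ab1 (0.04) and Cd74, the invariant chain (0.64), were not called. Of the 11 class II genes 10 had a positive difference (median 0.64), and 5 lay wholly above WT and 1 wholly below. The fit of the compared groups alone called 4 class II genes higher and 1 lower. Of 23 nucleic acid sensors and adaptors, Rnaseh2c, a subunit of an enzyme that removes RNA from DNA hybrids, was higher (0.67). None of 5 interferon-induced T cell chemokines was called; 2 had an unadjusted p below 0.05, and edgeR and DESeq2 each called 1. Cxcl10 was 59.4 to 138 in iNZM and 23.2 to 52.4 in WT (1.77, adjusted p = 0.0534).

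The largest differences in the opposite direction belonged to Skint genes, which encode butyrophilin-like proteins of the epidermis; Skint1 is known for selecting the gamma-delta T cells that populate mouse skin. Skint3, Skint4 and Skint9 had no read in any of the 14 WT libraries of the study, with or without UVB. In unexposed iNZM skin Skint3 was 5759, 4252, 6807 and 7616, Skint4 was 2902, 2573, 3758 and 3867, and Skint9 was 4068, 2812, 4395 and 4329. Against a floor of 3 reads over the 4 WT libraries they were at least 8600-fold, 4611-fold and 5492-fold higher.

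All 29 iNZM and NZM libraries had reads of the 3 genes, with the lowest at 284 for Skint3, 159 for Skint4 and 19.3 for Skint9. The 3 genes are adjacent on chromosome 4 (GRCm38 chr4:112072016-112433985). Skint1 and Skint2, on either side of them, were also higher in iNZM (2.70 ± 0.44, adjusted p = 2.96e-05, and 2.01 ± 0.51, adjusted p = 0.00687), as was Skint5 (2.47). Skint1 was 1549 to 2221 in iNZM and 248 to 384 in WT. The other 5 members tested were not called, among them Skint10 at 2488 to 3661 in iNZM and 2162 to 4241 in WT. In total 6 of 11 members were higher, against 5.84% of all tested genes, and the median was 2.01. Of the members, 4 were called without WT libraries 44 and 45 and 4 without iNZM libraries 39 and 40. The share of reads of each member that could align to another was not tested.

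**Figure D3:**
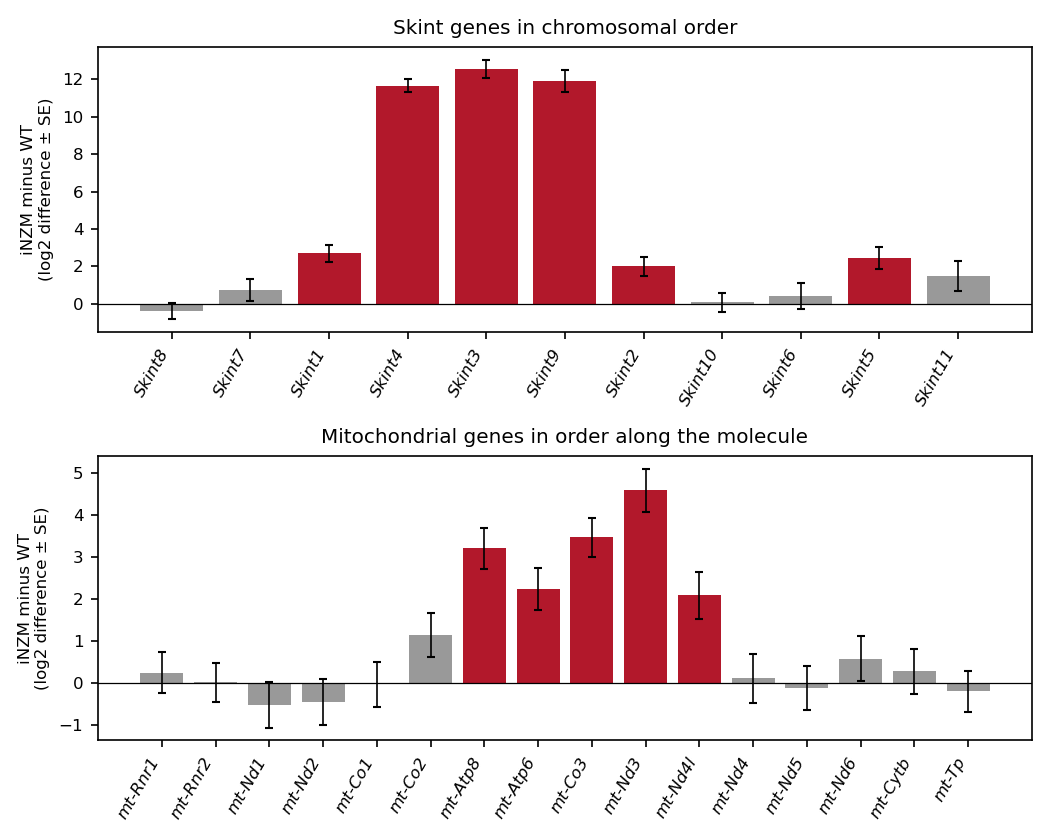
Log2 difference between iNZM and WT without UVB, with its SE, of the 11 Skint genes in their order on chromosome 4 (top) and of mitochondrial genes in order along the molecule (bottom); called genes are red. The runs Skint4, Skint3, Skint9 and mt-Atp8 to mt-Nd4l stand above their neighbours.

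Keratinocyte stress and alarmin genes, which are low in resting epidermis and rise on wounding, were higher in iNZM: 15 of 33 were called higher and none lower, with a median of 1.82 (5.84% of all tested genes were higher). NZM shared this: against the same WT libraries 13 of 33 were called higher and none lower, with a median of 1.69. There 7.47% of all tested genes were higher. None of the 33 was called in iNZM against NZM. Serpinb3a, a protease inhibitor of stressed epidermis, was 1439, 468, 862 and 917 in iNZM and 0, 3.96, 0 and 4.77 in WT (8.53 ± 0.99, adjusted p = 2.99e-08). Defb3, an antimicrobial defensin, was 139, 135, 150 and 136 in iNZM with no read in the 4 WT libraries, at least 197-fold higher. Krt16, a keratin of wounded and hyperproliferative epidermis, was 8441, 3430, 6727 and 5982 in iNZM and 320, 396, 186 and 857 in WT (3.95 ± 0.80, adjusted p = 0.000585). The groups did not overlap for any of these genes.

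The alarmin subunits S100a8 and S100a9, which keratinocytes and neutrophils both make, were higher by 3.95 and 5.16. Of the small proline-rich proteins of the cornified envelope, Sprr2a1 (5.11), Sprr2h (4.07), Sprr2d (5.01), Sprr2e (no read in WT, at least 64.1-fold higher), Sprr1a (3.45) and Sprr1b (3.37) were higher; several of these are near copies of each other. Krt17 (1.48), the gap junction gene Gjb6 (2.56), Lce3c (2.63) and Lce3d (2.55) completed the called members. The count was 15 without WT libraries 44 and 45, and 13 without WT libraries 41 and 43 or without iNZM libraries 39 and 40.

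Of the 6 Stefin A-type protease inhibitors tested, Stfa3 (5.13), Stfa2 (3.67) and Cstb (1.65) were higher, where 5.84% of all tested genes were higher. Stfa3 was 2980, 1241, 1211 and 1099 in iNZM and 24.4 to 94.6 in WT; the Stfa genes are near copies, so their separate counts are uncertain. Other genes of the same rank by size were Chil1, a chitinase-like protein, at 1591 to 3975 against 23.7 to 49.4 (6.16 ± 0.63), Pglyrp4, a bacterial sensor of skin (5.23), Atp12a, a proton pump (5.20), Gsdma2, a gasdermin (5.49), and Defb6, another defensin, at 7819 to 11080 against 764 to 1367 (3.11).

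Of 32 epidermal differentiation genes 4 were called higher and 1 lower, 29 had a positive difference (median 0.67), and 16 lay wholly above WT, against 11.1% of all tested genes. The fit of the compared groups alone called 15 higher and DESeq2 8. In the list Hrnr (2.47), Ivl (1.34), Asprv1 (1.54) and Casp14 (1.57) were higher, and Calm5, a calmodulin-like protein of differentiating keratinocytes, was lower. Hrnr, Ivl, Asprv1 and Casp14 were not called without WT libraries 44 and 45, where only Calm5 of that list passed. None of 15 basal keratinocyte genes was called; 4 had an unadjusted p below 0.05, edgeR called 0 and DESeq2 1, and Krt5 gave 0.57 (adjusted p = 0.185). Of 30 proliferation genes Mcm6 (0.95) was called, and all 30 had a positive difference with a median of 0.74.

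Of 14 NF-kB subunits and feedback regulators 3 were called higher and none lower, where 5.84% of all tested genes were higher. Nfkbiz, which directs NF-kB to a subset of its targets, was 2302, 2741, 2552 and 2005 in iNZM and 204, 186, 330 and 341 in WT (3.22 ± 0.34, adjusted p = 4.18e-09). Tnip1 (1.37) and Tnfaip3 (0.90), inhibitors of the same pathway, were also called; Tnfaip3 was not called without WT libraries 41 and 43. Of 22 myeloid chemokines and inflammatory cytokines 5 were higher, namely Cxcl1, Cxcl2, Cxcl3 and Cxcl5, which attract neutrophils, and Tnf. Cxcl1 was 123, 127, 149 and 67.8 in iNZM and 2.32, 4.95, 3.66 and 3.97 in WT (4.61 ± 0.79, adjusted p = 5.83e-05). Tnf was 38.8 to 66.7 against 6.41 to 15.9 (2.28). Without WT libraries 44 and 45, 3 of the 22 were called, Cxcl2, Cxcl3 and Cxcl5 not among them. Cxcl2 had no read in unexposed WT skin and was at least 21-fold higher in iNZM. Among 20 immediate-early factors Ier3 (1.49) and Egr2 (1.26) were higher.

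Some lymphocyte genes were called higher in iNZM. Of 20 T cell markers 6 were called higher and none lower, with a median of 1.28 (5.84% of all tested genes were higher). Cd5, a T cell surface receptor, was 71.9, 76.8, 110 and 100 in iNZM and 11.6, 13.8, 17.4 and 15.1 in WT (2.54 ± 0.37, adjusted p = 3.8e-06). Icos, a costimulatory receptor (2.75), Trac and Trbc1, the constant parts of the alpha-beta receptor (1.95 and 1.82), and the receptor kinases Zap70 (2.08) and Lck (1.17) were the others. Cd3e, part of the receptor complex, was 288 to 395 in iNZM and 82.4 to 271 in WT without overlap and did not pass (1.03, adjusted p = 0.258). The count of 6 fell to 4 without WT libraries 44 and 45, to 2 without 41 and 43 and to 1 without iNZM libraries 39 and 40; the median then lay between 1.34 and 1.45.

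Of 11 gamma-delta T cell markers Il17a (3.26) and Blk (2.45) were higher, from levels of at most 26.4 and 66.0 in iNZM; neither was called without WT libraries 44 and 45. Of 13 B cell and plasma cell genes tested, the antibody genes Igha and Igkc and the joining chain Jchain were higher (5.84% of all tested genes were higher). Igha was 276, 132, 1455 and 1902 in iNZM and 38.6 to 114 in WT; Jchain was 47.9, 32.1, 473 and 652 in iNZM and 1.83 to 42.1 in WT. Libraries 39 and 40 were high for all 3 genes, and without them none of the 3 was called. Klrb1c was the 1 called gene of 13 NK markers (2.82); it was not called without WT libraries 41 and 43 or by edgeR.

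Myeloid markers moved in single genes. Of 13 neutrophil markers S100a8, S100a9, Lcn2 (3.79) and Cxcr2 (3.91) were higher, and the median of the 13 was 0.10. Over all tested genes 5.84% were higher. Lcn2, an iron-binding protein that keratinocytes also make, was 322 to 721 in iNZM and 20.8 to 60.4 in WT. Of 16 monocyte markers Ly6c2 was lower (-2.37; not called without WT libraries 44 and 45), and none of 18 macrophage markers, 6 Fc gamma receptors or 23 complement genes was called. At an unadjusted p below 0.05 they held 0, 1 and 2 genes; edgeR called 0 in each, and DESeq2 called 1, 2 and 1. The macrophage median was -0.46 over all libraries and 0.88 without WT libraries 44 and 45. C1qa, a macrophage complement subunit, was 1750 to 4530 in iNZM, 2006 and 2007 in WT libraries 43 and 41, and 9066 and 13940 in libraries 44 and 45. Of 19 Langerhans and dendritic cell genes Epcam, an adhesion molecule of Langerhans cells and follicle keratinocytes (1.29), and the chemokines Ccl22 (2.86) and Ccl17 (2.29) were higher. Ccl22 was 299 to 436 in iNZM and 31.3 to 96.9 in WT. Of 15 mast cell genes Fcer1a, the IgE receptor chain, was higher (3.44) and Tph1, the serotonin-making enzyme of these cells, was lower (-4.07), at 2.18, 0, 0 and 0 in iNZM and 17.5 to 25.5 in WT. Ccl17 and Fcer1a were not called without WT libraries 44 and 45.

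**Figure D4:**
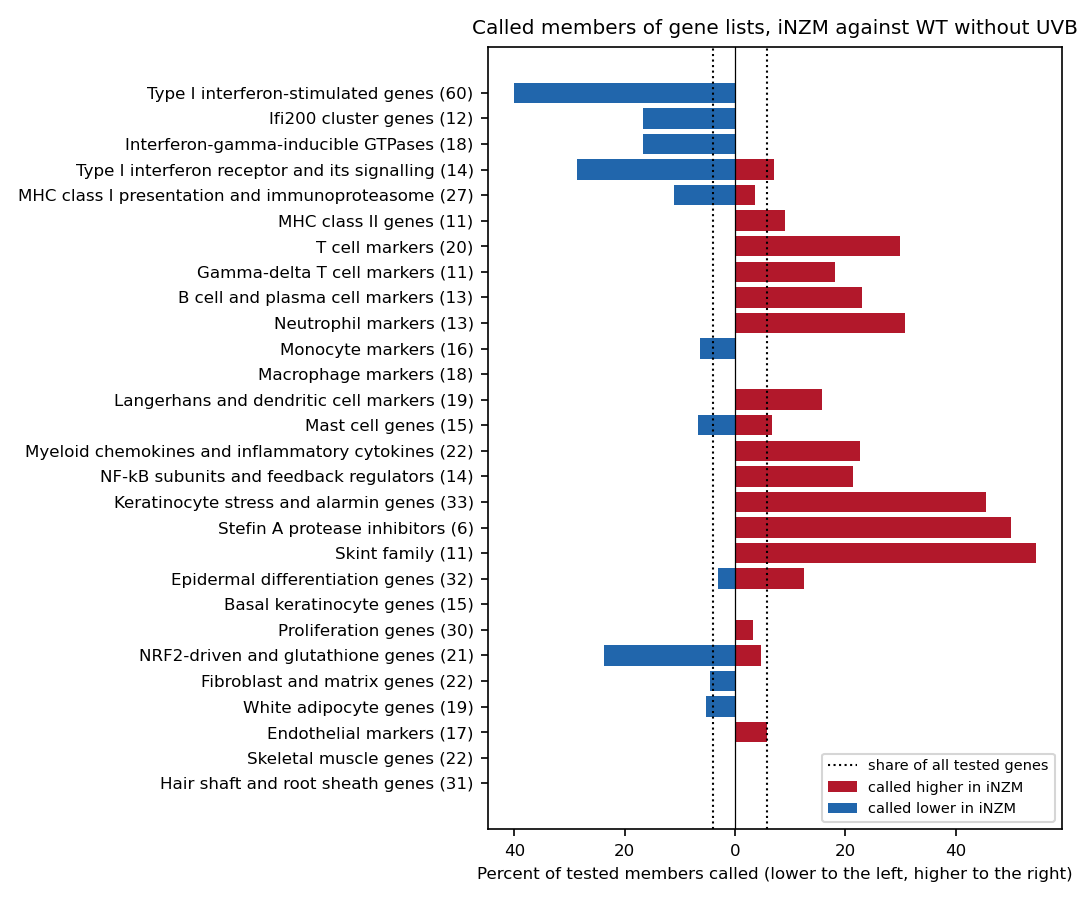
Percent of the tested members of 28 gene lists called higher (right) or lower (left) in iNZM than in WT without UVB, with the number tested in brackets; dotted lines are the shares of all tested genes, 5.84% and 3.94%. The Skint, Stefin and stress lists reach furthest right and the interferon-stimulated genes furthest left.

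In the detoxification list 5 of 21 genes were lower and 1, Slc7a11, was higher (1.91; not called without WT libraries 41 and 43). Over all tested genes 3.94% were lower and 5.84% higher. Gstm1, a glutathione transferase, was 1039, 1247, 1071 and 1117 in iNZM and 4033, 3891, 3430 and 4170 in WT (-1.79 ± 0.18, adjusted p = 1.06e-09). Gstm2 (-1.99), Gstp2 (-2.31), Gstp1 (-0.56) and Gstt1 (-1.34, not called without WT libraries 44 and 45) were the other lower members, and the Gstm and Gstp genes have near copies that could share reads. In NZM against WT 6 of the 21 genes were called lower and 1 higher, where 7.49% of all tested genes were lower. Plin1, the coat protein of fat droplets, was the 1 called gene of 19 white adipocyte genes, at 1119 to 2629 in iNZM and 5047 to 12840 in WT (-2.15). It was not called without either pair of WT libraries, and 12 of the 19 genes lay wholly below WT in iNZM, against 10.2% of all tested genes. The median of the 19 was -1.12. In NZM against WT it was -1.86, and 13 of the 19 were called lower, where 7.49% of all tested genes were lower. Slc27a2 of 10 thermogenic genes (-2.42), Sparc of 22 fibroblast genes (-1.24) and Hba-a2 of 6 red blood cell genes (-3.58) were lower, and all 3 were not called without WT libraries 44 and 45. Of the 6 red blood cell genes 5 had a positive difference, with a median of 0.71, so Hba-a2 ran against its list. Icam1 of 17 endothelial genes (0.88) and Egr2 of 13 nerve genes were higher, also against their lists. The endothelial median was -0.65, with 3 of 17 genes positive, and the nerve median was -0.47, with 3 of 13 positive. Of 20 sebaceous genes Dgat2l6 was higher (2.10) and Acsbg1 lower (-1.31). The sebaceous median was 0.46, with 14 of 20 genes positive. Of the 20, 9 lay wholly above WT and 4 wholly below, against 11.1% and 10.2% of all tested genes. The fit of the compared groups alone called 9 of them higher and 2 lower. Of 24 p53 targets Pmaip1 (0.91) and Btg2 (0.63) were higher and Aen (-0.68) and Zmat3 (-0.57) lower. Of these, Dgat2l6, Acsbg1, Btg2 and Zmat3 were not called without WT libraries 44 and 45, and Icam1, Pmaip1 and Aen not without 41 and 43. None was called of 31 hair, 15 pigment, 11 smooth muscle, 22 skeletal muscle, 19 clock, 20 cholesterol or 20 oxidative enzyme genes. At an unadjusted p below 0.05 these lists held 0, 0, 1, 0, 2, 2 and 0 genes. By edgeR 0, 0, 0, 0, 0, 1 and 0 were called, and by DESeq2 7, 1, 0, 0, 0, 2 and 0.

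Of 15 mitochondrially encoded transcripts, 5 were higher, and they are consecutive on the molecule between positions 7766 and 10173: mt-Atp8 (3.21), mt-Atp6 (2.23), mt-Co3 (3.47), mt-Nd3 (4.59) and mt-Nd4l (2.08). Subunits of the same complexes on either side were not called, such as mt-Co1 (-0.04) and mt-Nd4 (0.11). The gene mt-Nd3 was 5248, 5864, 3831 and 3624 in iNZM and 363, 340, 103 and 96.9 in WT (adjusted p = 1.62e-08), and it differed by 4.33 in NZM against WT. Without WT libraries 44 and 45, 3 of the 5 were called. Parts of the mitochondrial genome have near-identical copies in the nuclear genome, so these counts are uncertain, and the part of such copies in the difference was not tested.

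Genes called higher in iNZM had a median log2 difference of 1.45 in NZM against WT and of 0.14 in iNZM against NZM. For genes called lower the medians were -1.08 and -0.06. The genes were chosen on the shared WT libraries, so these medians are a description. In NZM against WT, 4 of 6 Stefin A-type, 4 of 20 T cell and 4 of 13 neutrophil genes were called higher and none lower. Over all tested genes 7.47% were higher there. Some of the genes lowest in iNZM relative to WT were low in NZM as well. Calm5 was 2.18, 0, 2.48 and 0 in iNZM and 864, 1051, 553 and 512 in WT (-8.61 ± 0.57, adjusted p = 9.85e-15). Pon1, a lactonase, was 4.36 to 37.9 in iNZM and 459 to 1191 in WT (-6.01). Baiap2l1, an adaptor of the actin skeleton, was 357, 379, 373 and 384 in iNZM and 11340, 14520, 8730 and 7919 in WT (-4.79 ± 0.21, adjusted p = 2.34e-20). The pseudogene Rps2-ps10 (-5.91) and Tpm3-rs7 (-5.36), a copy of a tropomyosin gene, followed; their reads may come from near-identical copies. In NZM against WT the same 5 genes differed by -8.83, -6.39, -4.44, -5.74 and -5.76. Among the higher genes Nlrp1c-ps, an inflammasome pseudogene, was 206 to 254 in iNZM with 1.16, 0, 0 and 0 in WT, and its difference was 7.53 in iNZM and 7.70 in NZM.

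A further set lay apart in iNZM from NZM as well. By a rule on non-overlapping libraries, Defb3, Ang2, Rptn, Rnase2a, Dscaml1, H2-Ob, Defb6 and Crygn were above all WT and all NZM libraries, and Ifi44, Baiap2l1, Oasl2, Ifit1, Oas1a, Rtp4, Usp18 and Irf7 below. They were named by the size of their difference from WT, and the share of all tested genes that meet this rule is not given here. In iNZM against NZM only Ifi44, Oasl2, Ifit1 and Usp18 of these genes were called. Dscaml1 was 327, 216, 252 and 151 in iNZM, 59.5, 151, 83.2, 22.0 and 26.2 in NZM and 11.9 to 31.0 in WT. The log2 difference from NZM was 2.07 for Dscaml1 and 2.58 for Rnase2a, neither called in that contrast; against WT, Rnase2a was not called without either pair of WT libraries.

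The strain difference was then followed into the UVB libraries, which are separate libraries with WT libraries of their own. Of the 1119 genes called higher without UVB, 1023 (91.4%) kept the sign after acute UVB and 610 (54.5%) were called in the same direction. After chronic UVB 728 (65.1%) kept the sign and 358 (32.0%) were called in that direction, with 63 called in the opposite one. Of the 756 called lower, 705 (93.3%) and 612 (81.0%) kept the sign and 462 (61.1%) and 334 (44.2%) were called. For the 17295 genes not called without UVB, the sign was shared in 62.9% after acute and 53% after chronic UVB. The median of the genes called higher went from 1.82 to 0.89 after acute and 0.27 after chronic UVB, and that of the genes called lower from -1.22 to -0.79 and -0.57. The genes were chosen on their values without UVB, so these medians are a description.

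The test of the change itself called 71 genes for acute UVB (0.37%; 0.11% higher and 0.261% lower) and 883 for chronic UVB (4.61%; 1.26% higher and 3.35% lower). Of 33 stress and alarmin genes 16 were called in the chronic test. Sprr2a1 had a difference of 5.11 without UVB and of -3.62 after chronic UVB, and Serpinb3a of 8.53 and 1.19. In WT, Serpinb3a was 431 ± 246 after chronic UVB (SD, n = 5), against at most 4.77 without UVB, while iNZM held 1354 ± 1289. The interaction of Serpinb3a was -7.34 on the log2 scale. Nfkbiz and Cxcl2 changed in both tests: for Nfkbiz the difference fell to 0.18 after acute and 0.42 after chronic UVB, where WT held 1059 ± 239 and 972 ± 241 counts. For Skint4 and Skint9 the difference after acute UVB was smaller than without UVB (interactions of -3.23 and -5.99), with iNZM at 398 ± 226 and 79.3 ± 57.0 and WT at 0. Hsd17b14, a steroid dehydrogenase, had a larger difference after UVB, 3.84 after acute and 2.81 after chronic against 1.03 without; the last was not called without WT libraries 44 and 45.

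**Figure D5:**
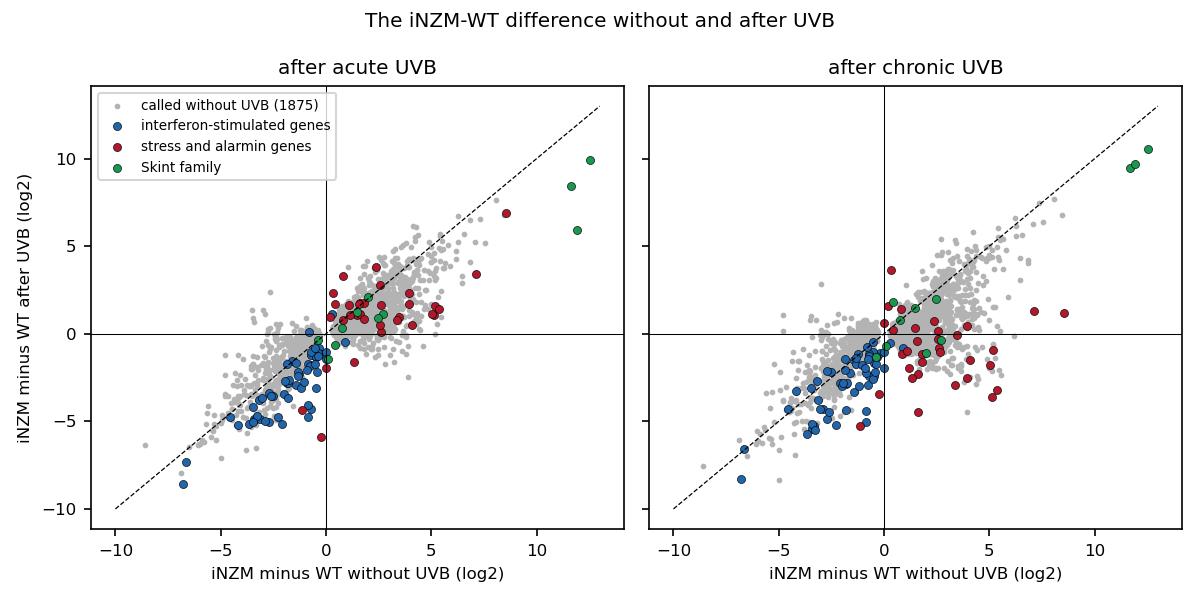
Log2 difference between iNZM and WT after acute (left) or chronic (right) UVB against the same difference without UVB, for the 1875 genes called without UVB and the members of 3 lists; the dashed line marks equal differences. Interferon-stimulated genes lie below 0 after UVB, apart from 2 after acute UVB, of which 1 was called higher, Skint3, Skint4 and Skint9 stay above 5 in both, and many stress genes lie below 0 after chronic UVB.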

How the data were processed

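The authors deposited 1 table of normalised read counts per gene, a signal in which each count is divided by its library's size factor. Per the submitters' processing notes, STAR, HTSeq and DESeq2 were used with build mm10; versions and strand setting are not given in the sources used here. All libraries were placed on 1 reference, and the effect of strain variants on alignment was not tested. Poly-A libraries were sequenced in 151-base pairs, per the labels' protocols. Multiplying each column by a size factor (0.6735 to 1.7503) gave whole numbers, to a tolerance of 0.01, in 100% of cells; these recovered reads set the totals per library, and depth limits genes with few reads. Values were tested as log2(value + 1) with limma 3.58.1 (trend; 1 mean per group over 43 libraries and 9 groups; Benjamini-Hochberg over 19170 genes, threshold 0.05); a log2 difference understates the change of low genes. On simulated data, 97% of 4-fold and 25% of 2-fold changes were recovered, with 9 false calls among 18158 genes. These rates describe the simulated counts only. Whether they hold for the real libraries, in which the unexposed WT group was split, was not tested. Alternatives included the count models of DESeq2 1.42.0 and edgeR 4.0.16, other scalings, pseudocounts and filters, and leaving out libraries; the paired libraries and the macrophage covariate were chosen after seeing the data. Lists are described by counts and medians. Named genes were the largest non-overlapping differences with a mean of at least 100, up to 4 members per list, genes without reads in 1 group, neighbours of Ifnar1, and 13 interferon genes (1 is not reported here); others were named as called list members after their values were seen. The members, lists and rules were chosen with earlier results of these data known. Positions are GENCODE M21 (GRCm38), matched by symbol for 16728 genes. Replicate libraries were distinct (chi-square per gene of at least 16.9).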

Additional observations from a re-analysis of the deposited data

Results flagged for a closer look

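In 22 of 310 groups of 4 libraries, 1 library lay further from the other 3 than Dixon's 95% criterion of 0.829 allows. For a single group chance gives about 1 in 20. The groups here are genes in the same 8 libraries, many named for their values, so that rate is no baseline for the count. The measure is the gap to the nearest library divided by the whole range of the group. It is 1.000 by construction where the other 3 libraries had no read, and those values rest on a normalised count of at most 2.18. In WT library 41 it was 1.000 for Nlrp1c-ps (1.16, the highest). In WT library 43 it was 1.000 for Cxcl3 (0.989, the highest), 1.000 for Il17a (1.98, the highest), 0.883 for Ivl (1755, the highest). In WT library 44 it was 1.000 for Ifi213 (0.915, the highest), 0.861 for Pon1 (459, the lowest). In WT library 45 it was 1.000 for Apol7c (1.59, the highest), 0.836 for Ccl22 (96.9, the highest), 0.881 for Cxcl10 (52.4, the highest), 0.834 for Gabra3 (351, the highest), 0.962 for Gstt1 (1071, the highest), 0.833 for Igha (114, the highest), 0.898 for Jchain (42.1, the highest), 0.913 for Rnaseh2c (358, the lowest), 0.903 for Sprr1b (106, the highest). In iNZM library 37 it was 0.845 for Ang2 (956, the highest), 0.847 for Fam162a (3418, the highest), 0.925 for Stfa3 (2980, the highest), 1.000 for Tph1 (2.18, the highest). In iNZM library 38 it was 0.924 for Krt17 (66930, the lowest). In iNZM library 40 it was 0.849 for Gstp2 (54.2, the lowest), 0.833 for Marc1 (29.2, the highest).

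The difference between iNZM and WT changed with UVB for the genes that follow, by limma's test of the interaction (adjusted p below 0.05); each value is the difference after UVB minus the difference without UVB, on the log2 scale. With chronic UVB the change for stress, envelope and protease-inhibitor genes was as follows: Sprr2a1 (-8.73), Sprr2e (-8.59), Serpinb3a (-7.34), Stfa3 (-7.24), Rptn (-6.90), Sprr2d (-6.81), Krt16 (-6.47), Sprr1b (-6.32), Defb3 (-5.85), Sprr2h (-5.56), Stfa2 (-5.49), Lce3c (-3.68), Sprr1a (-3.53), Defb6 (-3.19), Gjb6 (-2.40) and Cstb (-1.82). With chronic UVB the change for differentiation, Skint and other keratinocyte genes was as follows: Gsdma2 (-5.30), Elf3 (-5.13), Ang2 (-4.90), Hrnr (-3.90), Atp12a (-3.67), Car12 (-3.61), Prss22 (-3.53), Casp14 (-3.26), Skint2 (-3.09), Skint1 (-3.03), Asprv1 (-2.56), Skint4 (-2.19), Ivl (-2.12), Acsbg1 (-2.0), Epcam (-1.59) and Krt5 (-1.48). With chronic UVB the change for immune genes was as follows: Cxcl2 (-8.37), Chil1 (-6.29), S100a9 (-6.06), Cxcr2 (-5.32), Cxcl3 (-5.15), Ccl22 (-4.80), Cxcl10 (-4.42), Cd5 (-3.81), Ccl17 (-3.44), Nfkbiz (-2.79), Trac (-2.63), Socs1 (-1.93), H2-Q1 (-1.77), Icam1 (-1.77), Tap2 (-1.38) and Rnaseh2c (-0.72). The other genes with a negative change with chronic UVB were Igfl3 (-7.89), Nsg2 (-3.78), Fam162a (-3.09), Pmaip1 (-1.66), Ier3 (-1.62) and Gstm2 (-0.90). A positive change with chronic UVB was found for Baiap2l1 (0.94) and Hsd17b14 (1.78). With acute UVB the change was negative for Cxcl2 (-6.38), Skint9 (-5.99), Cxcl1 (-5.29), Cxcl10 (-4.57), Skint4 (-3.23), Nfkbiz (-3.04), Prss22 (-2.49), Pmaip1 (-1.62), Ier3 (-1.39), Cstb (-1.29), Epcam (-1.27) and Btg2 (-1.16), and positive for Baiap2l1 (1.34) and Hsd17b14 (2.81). For Baiap2l1 the positive values mean that iNZM lay less far below WT after UVB than without.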

How the results depend on the processing

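No paired analysis was possible because the sample numbers of the groups compared are not shared. In the comparison without UVB, no alternative changed the direction of a named gene's called difference or called a shared gene in the opposite direction; for the UVB comparisons and interactions only counts were compared. Without UVB the 1119 higher and 756 lower genes became 2064 and 1704 with sample quality weights, 679 and 383 at an adjusted p below 0.01, 701 and 391 without WT libraries 44 and 45, and 626 and 423 without iNZM libraries 39 and 40. DESeq2 gave 1219 lower genes and a fit of the compared groups alone 1272. The 24 interferon-stimulated genes called lower became 15 at an adjusted p below 0.01, 6 without WT libraries 44 and 45 and 14 without iNZM libraries 39 and 40. With the compared groups alone, acute UVB gave 971 higher and 916 lower genes, against 2339 and 2401, and chronic UVB 446 and 817, against 1173 and 1616. The acute interaction, 21 higher and 50 lower, gave 35 and 78 with a pseudocount of 8, 5 and 23 with the compared groups alone, and 30 lower with edgeR; the chronic interaction gave 367 higher with edgeR, against 241. The cause of these changes was not tested. Fits that leave libraries out also hold fewer libraries, and the part of that was not tested either.

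Leaving out 1 library at a time gave 853 to 1045 higher and 482 (without WT library 45) to 686 lower genes without UVB, and 14 (without WT library 45) to 31 interferon-stimulated genes, 12 to 15 stress genes and 6 Skint genes. The ranges were 1569 to 3021 higher and 1277 to 3220 lower for acute UVB, 735 to 1521 and 968 to 1991 for chronic UVB, 7 to 81 and 23 to 92 for the acute interaction, and 148 to 377 and 439 to 773 for the chronic one. The lowest acute count came without iNZM library 6 and the lowest chronic counts without iNZM library 24. Without WT library 43 or 45 the acute interaction gave 7 higher genes, and without iNZM acute library 10 it gave 81 higher and 92 lower. Of 189 genes followed, 53 lost their call without WT libraries 44 and 45, 32 without WT libraries 41 and 43, 49 without iNZM libraries 39 and 40 and 1 with the macrophage covariate; TMM scaling ended 1 call. Leaving out 1 of the 8 libraries ended between 13 calls (iNZM library 38) and 28 (WT library 44). The paired omissions, the covariate and the omissions of UVB libraries were chosen after seeing the data. Counts of few reads limit what the depth can show for low genes.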

Other observations

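Some of the largest differences between iNZM and WT skin belonged to genes outside the pathways above. Hamp2, a hepcidin-type peptide, was 112, 204, 130 and 101 in iNZM and at most 3.66 in WT (5.63 ± 0.65, adjusted p = 3.33e-08 in limma), and the difference was 5.42 after chronic UVB. Apol7c, an apolipoprotein L family gene, was 82.7 to 139 against 0, 0, 0 and 1.59 (6.44). Ear1, an eosinophil-associated ribonuclease, was 28.2 to 94.9 in iNZM with no read in the 4 WT libraries, at least 78.1-fold higher; it has near copies that could share its reads. Nsg2 (5.89) and Igfl3 (5.54) were higher as well, and Igfl3 was lower in iNZM than in WT after chronic UVB (-2.35, adjusted p = 0.0338). In the other direction Mup17, of the closely related major urinary proteins, was 0 to 11.7 against 39.6 to 148 (-4.92), and Tceanc2 (-4.36), Hbld2 (-3.73), Gabra3 (-3.78) and Marc1 (-4.03) were lower. NZM differed from WT by -4.95, -4.49, -3.85, -5.63 and -5.41 for these 5 genes.

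Among the genes whose difference changed most clearly with UVB, Prss22, an epithelial serine protease, was 279 to 526 in iNZM and 34.8 to 66.7 in WT without UVB (2.81 ± 0.28, adjusted p = 8.42e-10). Its difference was 0.32 after acute and -0.72 after chronic UVB. Car12, a carbonic anhydrase, differed by 2.97 without UVB, 1.70 after acute and -0.64 after chronic UVB. Elf3, an epithelial transcription factor, gave 3.01, 1.06 and -2.11, and Fam162a gave 1.54, 0.24 and -1.55.

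By chromosome, the share of tested genes called in iNZM against WT was 9.29% over all genes with a position. It was 12.7% on chromosome 4, where the Skint genes lie, and 8.67% on chromosome 16, where Ifnar1 lies. Chromosome 3 held 12.6%, chromosome 17 held 11.1%, and of 16 mitochondrial genes 31.2% were called. Of the 124 called genes on chromosome 4, 6 were Skint genes.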
